A study of Sus scrofa with 3 samples.

Results

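The molecular clock of visceral adipose tissue (VAT) was followed through its core genes in 3 RNA-Seq libraries, 1 from intact males (IM), 1 from castrated males (CM) and 1 from castrates that received testosterone (CMT). The genes were listed by name and by no rule on their values, with earlier results of these data known. They are CLOCK, ARNTL, PER1, PER2, PER3, CRY1, CRY2, NR1D1, NR1D2 and DBP, 10 genes in all. Among the 22826 genes that the deposited values class as mRNA, 9 of the 10 were found. Of these, 8 carried their own symbol, and DBP was found as LOC100524747 through its NCBI gene identifier. NR1D1 was not analysed here. PER3 was listed at 0 in every library, which left 8 genes with values. The question was whether the pools stood at different phases of the clock.

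The animals were Chinese Wuzhishan miniature pigs, a small breed, bought at 6 to 7 months of age and kept for 7 weeks on a standard diet. Every group, IM included, then ate an HFC diet rich in fat and cholesterol for 12 weeks. Castration was done in the CM and CMT groups, and the IM group had a sham operation that opened the skin. Testosterone propionate went to the CMT group alone, at 10 mg/kg into muscle once a week. VAT was retroperitoneal fat. RNA was pooled in equal amounts over the pigs of a group before 1 library per group was made, from 4 pigs by the study's methods and from 4 to 6 by the sample labels. A value is therefore an average over pigs, the spread between pigs was not measured, and no difference below has a replicate check. Neither the labels nor the study's methods give the hour at which each pig was killed.

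The clock is a feedback loop of transcription. CLOCK and the product of ARNTL, also called BMAL1, form a dimer that binds E-box elements and switches on the PER, CRY, NR1D and DBP genes. PER and CRY proteins then block the dimer, while the NR1D proteins, also called REV-ERB, repress ARNTL, and ROR proteins activate it. In rhythmic tissues, fat among them, ARNTL transcripts therefore peak at about the opposite time of day to those of DBP and the NR1D genes. The E-box genes do not all peak together, since DBP and the NR1D genes come before PER1, and PER1 before PER2. A shift of phase can thus raise some of them and lower others, depending on the hours compared, whereas CLOCK transcripts vary little in most tissues.

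Levels are given in UQRPKM, reads per kilobase of gene scaled by each library's upper quartile and not by its total. The reads behind the values were recovered from their steps, as the smallest whole numbers that fit, and came to between 15106608 and 16611931 per library over all genes. Differences are log2 ratios of UQRPKM without a pseudocount. Each has a 95% Clopper-Pearson interval from the reads of the gene, which covers counting error only and not the spread between pigs. Since amplified reads can repeat 1 molecule, it may also understate the counting error. Each library enters a pair of the 3 comparisons, so the comparisons are not independent. A gene was said to pass when it reached 1.5-fold in either direction and neither library was under 1 UQRPKM.

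The libraries differed in their levels of cell type markers. The adipocyte markers were abundant in each, with ADIPOQ, the gene of adiponectin, at 74928 (IM), 69193 (CM) and 63873 (CMT) UQRPKM. The 8 adipocyte markers analysed here (FABP4 and LPL were not) summed to 140332, 131750 and 110075 UQRPKM, with CIDEA at 0 throughout. The 11 skeletal muscle markers summed to 94.1 (IM), 76.5 (CM) and 6030 (CMT) UQRPKM, with CKM and MB at 0 throughout. The 10 hepatocyte markers summed to 17.9, 7109 and 22.4, and APOA2, FGG and SERPINA1 were at 0 outside CM. The 5 mesothelial markers summed to 73.5, 138.1 and 367, with LRRN4 at 0. Muscle, liver and mesothelium have clocks of their own, and the part of these cells in the clock values was not tested. In a bulk sample, fewer cells of a type and less RNA per cell cannot be told apart.

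CRY2 and PER1 were the most abundant clock genes in each library. CLOCK and CRY1 were the least abundant in IM and CM, and CRY1 and PER2 in CMT. On the UQRPKM scale, which is per gene length, CRY2 lay between 314 and 408 and PER1 between 315 and 440.3. NR1D2 and DBP formed a middle tier at 126.9 to 141.1 and 94.7 to 139.2. ARNTL and PER2 followed at 52.9 to 60.9 and 35.6 to 54.5, and CLOCK and CRY1 at 26.5 to 48.8 and 25.8 to 32.8. Neighbours within a tier were not always separable. In the IM library the counting intervals of ARNTL and PER2 overlapped, as did those of CLOCK and CRY1, and in the CM library those of NR1D2 and DBP did. PER1 stood above CRY2 in IM and CMT and below it in CM.

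**Figure D1:**
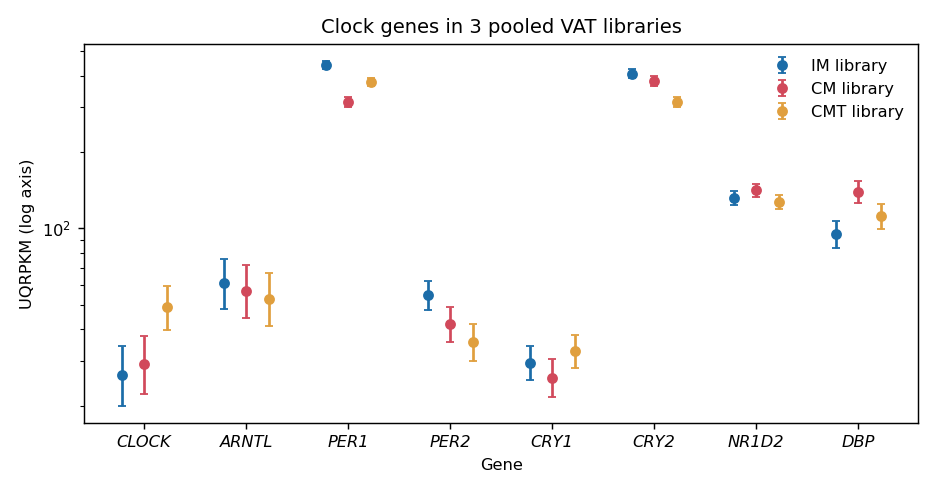
Levels of the 8 clock genes with values in the IM, CM and CMT libraries, in UQRPKM on a log axis. Points are single pooled libraries and bars are exact 95% Poisson intervals of the recovered reads, which cover counting error only. CLOCK is highest in CMT at 48.8, PER1 is lowest in CM at 315, and DBP is highest in CM at 139.2.

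CLOCK, the E-box activator with histone acetyltransferase activity, differed most. It stood at 26.5 (IM), 29.2 (CM) and 48.8 (CMT) UQRPKM, from 57, 60 and 103 reads. CMT was the high library, and its counting interval, 39.9 to 59.2, lay above those of IM, 20.1 to 34.3, and CM, 22.3 to 37.6. The log2 ratio was 0.88 (interval 0.40 to 1.38) in CMT against IM and 0.74 (0.27 to 1.22) in CMT against CM, and both passed. In CM against IM it was 0.14 (-0.40 to 0.69). The muscle and mesothelial markers given above were also highest in CMT, and their part in the CLOCK value was not tested.

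ARNTL, the dimer partner of CLOCK and the core gene whose loss stops the clock, stood at 60.9 (IM), 56.8 (CM) and 52.9 (CMT) UQRPKM, from 81, 72 and 69 reads. The 3 libraries lay close together and their counting intervals overlapped. The log2 ratios were -0.10 (-0.58 to 0.38) in CM against IM, -0.10 (-0.60 to 0.40) in CMT against CM and -0.20 (-0.69 to 0.28) in CMT against IM. At this depth a difference of ARNTL within those intervals was not detectable. The gene lengths that fitted the values of CLOCK, ARNTL and PER2 were short, so their reads may be a multiple of those given and their intervals too wide. CLOCK and ARNTL thus parted in CMT. The difference of their log2 ratios, which does not depend on the scaling of the libraries, was 1.08 (0.43 to 1.74) in CMT against IM and 0.84 in CMT against CM, where the lower bound was 0.18. NPAS2, which can take the place of CLOCK in the dimer, had 30.6 (IM), 30.6 (CM) and 24.0 (CMT) UQRPKM, and was lowest where CLOCK was highest. The log2 ratio of NPAS2 was -0.35 (-0.697 to -0.007) in CMT against CM and -0.35 (-0.694 to -0.012) in CMT against IM, and neither passed. With the median of the adipocyte markers set to 0, log2 ratios rise by 0.47 in CMT against CM and 0.39 in CMT against IM. Both ratios of NPAS2 then turn positive, and NPAS2 is no longer lowest in CMT. CLOCK stood at 0.865 times the level of NPAS2 in IM, 0.956 (CM) and 2.03 (CMT).

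PER1 and PER2 encode the PERIOD proteins that carry CRY into the nucleus and block the dimer. PER1 had 440.3 (IM), 315 (CM) and 377 (CMT) UQRPKM, from 3146, 2145 and 2641 reads. IM was the high library and CM the low one, with counting intervals that did not overlap. The log2 ratio was -0.48 (-0.56 to -0.40) in CM against IM, 0.26 (0.18 to 0.34) in CMT against CM and -0.22 (-0.30 to -0.15) in CMT against IM, none of which passed. PER2 had 54.5 (IM), 41.9 (CM) and 35.6 (CMT) UQRPKM, from 225, 165 and 144 reads. It was again highest in IM, but lowest in CMT, where the interval overlapped with that of CM. Its log2 ratio of -0.61 (-0.93 to -0.31) in CMT against IM passed, and those of -0.38 (-0.68 to -0.08) in CM against IM and -0.24 (-0.57 to 0.09) in CMT against CM did not. PER2 no longer passed in CMT against IM under 3 other scalings, with log2 ratios of -0.57 by total UQRPKM, -0.53 by the median of ratios and -0.22 with the median of the adipocyte markers set to 0. PER3, the third PERIOD gene, was listed at 0 in each library, which need not mean absence, as the same was true of 6 of 66 ribosomal protein genes.

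DBP, a transcription factor of the PAR bZIP family and one of the most rhythmic E-box targets, had 94.7 (IM), 139.2 (CM) and 111.6 (CMT) UQRPKM, from 272, 381 and 314 reads. CM was the high library, and its counting interval did not overlap with those of IM and CMT. The fold change of 1.47 in CM against IM lay just under the limit, as a log2 ratio of 0.56 (0.33 to 0.79), and DBP passed there with the median of ratios as the scaling. The log2 ratio was -0.32 (-0.54 to -0.10) in CMT against CM and 0.24 in CMT against IM, where the interval included 0. NR1D2, the gene of the repressor REV-ERB beta, varied least. It had 132.3 (IM), 141.1 (CM) and 126.9 (CMT) UQRPKM, from 982, 998 and 923 reads. Its intervals overlapped across the libraries, and its log2 ratios lay between -0.15 and 0.09.

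CRY1 and CRY2 encode the cryptochromes, the repressors that act on the dimer directly. CRY1 had 29.5 (IM), 25.8 (CM) and 32.8 (CMT) UQRPKM, from 167, 139 and 182 reads, and the intervals of the libraries overlapped. Its largest log2 ratio was 0.35 (0.02 to 0.68), in CMT against CM. CRY2 had 408 (IM), 381 (CM) and 314 (CMT) UQRPKM, from 2455, 2189 and 1855 reads. CMT was the low library, with a log2 ratio of -0.28 (-0.37 to -0.19) against CM and -0.37 (-0.46 to -0.29) against IM. Neither cryptochrome passed in any comparison. CRY2 exceeded CRY1 by a factor of 13.8 in IM, 14.8 (CM) and 9.57 (CMT).

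In CM against IM, 0 of the 8 genes passed, where 18.8% of the 14123 mRNA genes tested did, and 12.6% of those with at least 50 reads over both libraries. In CMT against CM, 1 gene passed, CLOCK, against 19.5% of all genes and 13.2% of those with 50 reads. In CMT against IM, 2 genes passed, CLOCK upward and PER2 downward, against 20.7% and 14.8%. The counts of 0 and 1 out of 8 lay under both shares of their comparison, and that of 2 out of 8 lay above both. With 8 genes, a single call weighs heavily in such a share. By direction, 8.38% of all genes passed upward and 10.4% downward in CM against IM. The shares were 9.53% and 9.97% in CMT against CM. In CMT against IM they were 8.81% and 11.9%. The median log2 ratio of the 8 genes was -0.10 in CM against IM, -0.13 in CMT against CM and -0.13 in CMT against IM, beside -0.06, -0.02 and -0.08 over all mRNA genes tested. Across the 3 libraries the range of the clock genes had a median of 0.43 on the log2 scale, from 0.15 for NR1D2 to 0.88 for CLOCK. The median range was 0.41 over the 13858 mRNA genes with at least 1 UQRPKM in every library and 0.33 over the 10012 of these with at least 200 reads in all.

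**Figure D2:**
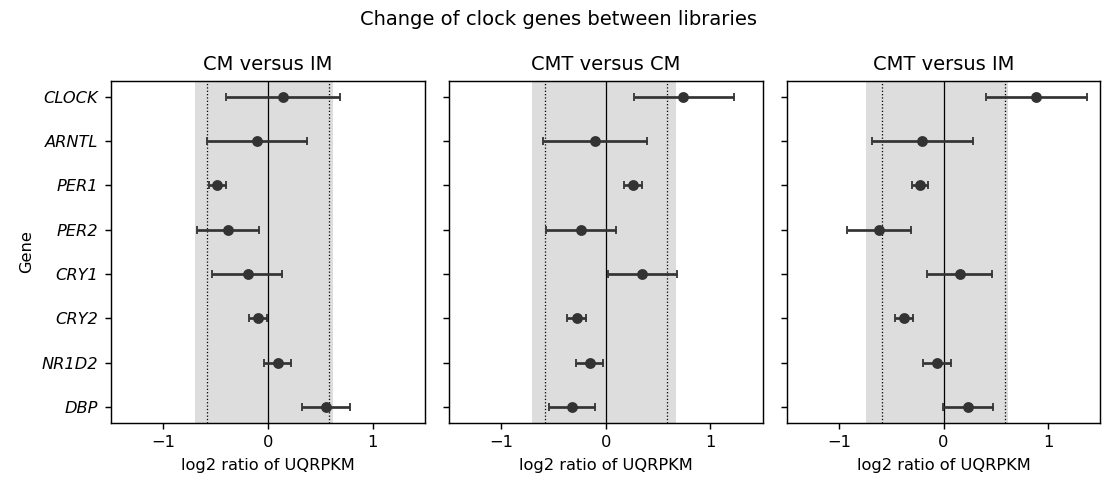
Log2 ratios of UQRPKM of the 8 clock genes in the 3 comparisons, with 95% Clopper-Pearson intervals from reads. Dotted lines mark a 1.5-fold change, and the grey band holds the middle 90% of mRNA genes with at least 50 reads. CLOCK lies to the right of the band in CMT against CM, at 0.74, and in CMT against IM, at 0.88, and the other genes lie within it.

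A difference of phase was looked for by comparing the arms of the loop. The E-box arm was NR1D2, DBP, PER1 and PER2, and the activator arm was CLOCK and ARNTL. The median log2 ratio of the E-box arm was -0.14 in CM against IM, -0.19 in CMT against CM and -0.14 in CMT against IM. The activator arm had 0.02, 0.32 and 0.34. The E-box arm minus the activator arm came to -0.16 (approximate counting interval -0.55 to 0.22), -0.51 (-0.89 to -0.14) and -0.48 (-0.82 to -0.14). The median of an arm cannot show a shift that raises some of its genes and lowers others. In CM against IM, DBP at 0.56 and PER1 at -0.48 lay on either side of the E-box median. The differences between the arms therefore cannot tell phase, and they depended on the genes in the arms. In the comparisons with CMT they rested on CLOCK, whose transcripts vary little in most tissues. With ARNTL alone as the activator, a choice made after the values were seen, they were -0.042, -0.093 and 0.060. With NPAS2 added to the activators and HLF, BHLHE40, BHLHE41 and CIART to the E-box arm, they were 0.12, -0.063 and 0.46, so that the direction turned in CM against IM and in CMT against IM. Several directions in CMT also depended on the scaling. With the median of the adipocyte markers set to 0, ARNTL, CRY2, DBP, NR1D2 and PER2 turned from lower to higher in CMT against CM, and ARNTL, CRY2, NR1D2 and PER1 did so in CMT against IM.

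The E-box genes did not move as a block. In CM against IM, DBP was higher and PER1 and PER2 were lower, with NR1D2 in between. The log2 ratio of DBP exceeded that of PER1 by 1.04 (0.80 to 1.28) and that of PER2 by 0.93 (0.57 to 1.30), and that of NR1D2 exceeded that of PER1 by 0.58 (0.43 to 0.73). DBP stood at 0.215 (IM), 0.442 (CM) and 0.296 (CMT) times the level of PER1. In CMT against CM the log2 ratio of DBP minus that of PER1 was -0.58 (-0.81 to -0.35). DBP stood at 1.56 (IM), 2.45 (CM) and 2.11 (CMT) times the level of ARNTL. The log2 ratio of DBP minus that of ARNTL was 0.66 (0.15 to 1.17) in CM against IM. PER1 stood at 7.23, 5.55 and 7.13 times the level of ARNTL, and NR1D2 at 2.17, 2.49 and 2.40 times. Minus that of ARNTL, the log2 ratio in CM against IM was -0.38 (-0.85 to 0.08) for PER1, -0.28 (-0.82 to 0.26) for PER2 and 0.19 (-0.28 to 0.67) for NR1D2. Relative to ARNTL, DBP was thus higher in CM than in IM beyond counting error, and the other E-box genes had values of both signs with intervals that included 0. In both comparisons with CMT the interval included 0 for each of the E-box genes. Whether the pools stood at different phases was not settled by these values. The hours of sampling were not given, so their part in the differences of PER1, DBP and CLOCK was not tested, and a pool of pigs sampled at several hours cannot be told apart from one with a weak rhythm.

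**Figure D3:**
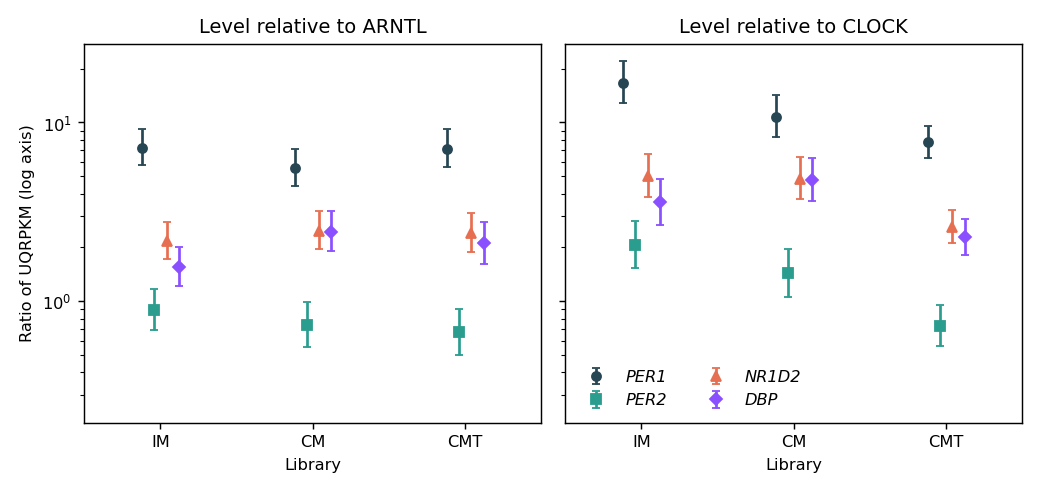
Levels of the E-box genes PER1, PER2, NR1D2 and DBP relative to ARNTL (left) and to CLOCK (right) within each library, as ratios of UQRPKM on a log axis with 95% Clopper-Pearson intervals from reads. Against ARNTL, DBP is lowest in IM at 1.56 and highest in CM at 2.45. Against CLOCK the CMT library is lowest for all 4 genes, as for PER2 at 2.06 in IM, 1.43 (CM) and 0.729 (CMT). These 4 ratios share CLOCK as the denominator, which is highest in CMT at 48.8 UQRPKM. In their own levels, PER2 and NR1D2 are lowest in CMT, and PER1 and DBP are not.

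The wider clock pathway was read from a list of 28 genes, of which 27 were found and 24 had at least 1 UQRPKM in both libraries of each comparison. In CM against IM, 2 of the 24 passed upward and 0 downward, beside the 8.38% upward and 10.4% downward of all genes. ARNTL2, a paralog of ARNTL, had 41.0 (IM), 64.0 (CM) and 35.2 (CMT) UQRPKM, and its log2 ratio was 0.64 (0.32 to 0.97) in CM against IM. BHLHE41, a repressor that competes for E-boxes and is also called DEC2, had 64.5, 98.7 and 80.1 UQRPKM, with a log2 ratio of 0.61 (0.41 to 0.82). Its paralog BHLHE40 (DEC1) had 162, 222 and 197 UQRPKM and a log2 ratio of 0.46 (0.30 to 0.62), which did not pass. All 3 were highest in the CM library, as DBP was.

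In CMT against CM, 2 of the 24 passed upward and 1 downward, where 19.5% of all genes passed. The latter was ARNTL2, with a log2 ratio of -0.86 (-1.21 to -0.52). CIART, a repressor of the dimer also called CHRONO, had 11.3 (IM), 9.57 (CM) and 14.8 (CMT) UQRPKM, but its 17 and 27 reads in CM and CMT gave an interval that included 0. USP2, a deubiquitinase of clock proteins, had 5.17, 4.11 and 7.64 UQRPKM from 29, 22 and 42 reads, and a log2 ratio of 0.89 (0.12 to 1.71). In CMT against IM, 1 of the 24 passed, against 20.7% of all genes. It was SIRT1, the deacetylase that binds CLOCK, with 53.0 (IM), 72.6 (CM) and 83.5 (CMT) UQRPKM and a log2 ratio of 0.66 (0.37 to 0.95). The median log2 ratio of the 24 genes was 0.02 in CM against IM, 0.02 in CMT against CM and 0.11 in CMT against IM.

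The factors of the D-box, the element through which DBP acts, were HLF, an activator of the same family, and NFIL3, the repressor also called E4BP4. HLF had 39.1 (IM), 43.5 (CM) and 56.3 (CMT) UQRPKM, and NFIL3 had 271, 320.0 and 385. Both were highest in CMT, with log2 ratios of 0.53 and 0.51 in CMT against IM that did not pass. TEF was not analysed here. Of the ROR activators of ARNTL, RORA had 6.39, 8.44 and 7.15 UQRPKM, and RORB rested on a single read. The list also holds 14 genes whose products modify clock proteins, mostly kinases and ubiquitin ligases, among them CSNK1D and CSNK1E, which mark PER proteins for decay. CSNK1D lay between 414 and 531 UQRPKM and CSNK1E between 287 and 378, and neither passed in any comparison.

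Among 10 measured genes known as outputs of the clock, GYS2, a glycogen synthase of liver and fat, differed most. It had 80.7 (IM), 44.3 (CM) and 15.0 (CMT) UQRPKM, from 319, 167 and 58 reads, with a log2 ratio of -2.43 (-2.86 to -2.02) in CMT against IM. WEE1, a kinase of the cell cycle with E-boxes in its promoter, passed in CMT against IM at 0.81 (0.38 to 1.24), with 14.5 (IM), 17.1 (CM) and 25.3 (CMT) UQRPKM. NAMPT, the enzyme of NAD synthesis that follows the clock, had 38.0, 47.7 and 46.5 UQRPKM, and did not pass. Of the 10 genes, 2 passed upward and 1 downward in CM against IM, 0 and 2 in CMT against CM, and 1 and 2 in CMT against IM, beside 18.8%, 19.5% and 20.7% of all genes in either direction. UCP3, a mitochondrial carrier whose gene is active in muscle, had 1941 (IM), 2332 (CM) and 1240 (CMT) UQRPKM. Its log2 ratio in CMT against CM was -0.91. The muscle markers were highest in CMT, and the part of muscle in the UCP3 values was not tested.

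PER1 is also a direct target of glucocorticoids and of the signals that induce immediate early genes, and both lists were therefore set beside it. The part of either signal in the PER1 values was not tested. Of 10 measured glucocorticoid response genes, 9 were lower in CM than in IM, beside 56.8% of all mRNA genes tested. Only 1 passed, ANGPTL4, an inhibitor of lipoprotein lipase, which was lower, where 10.4% of all genes passed downward. The median log2 ratio of the 10 genes was -0.27. ZBTB16 had -0.58, SGK1 -0.54 and PDK4 -0.46, next to the -0.48 of PER1, while FKBP5 and TSC22D3, both common glucocorticoid markers, had -0.08 and -0.11. DUSP1 had -0.43, KLF9 -0.09, NR3C1 -0.03 and CEBPD 0.06. In CMT against CM, 7 of the 10 genes were higher and 3 lower, where 52.7% of all mRNA genes tested were lower. Their median log2 ratio was 0.14. There 2 genes of the list passed upward, KLF9 at 0.69 and CEBPD at 0.62, and 1 downward, DUSP1 at -0.68. Over all genes, 9.53% passed upward and 9.97% downward. In CMT against IM, 2 passed upward (KLF9 and CEBPD) and 2 downward (DUSP1 and SGK1), beside 8.81% and 11.9% of all genes.

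Most immediate early genes, which respond within minutes to stimuli, were lower in CMT. In CMT against IM, 9 of 11 passed downward and 0 upward, with a median log2 ratio of -1.16, where 11.9% of all genes passed downward. In CMT against CM, 7 passed downward and 0 upward, with a median of -0.88, where 9.97% of all genes passed downward. MYC did not pass, with 0.11 and 0.23. FOS had 493 (IM), 552 (CM) and 174 (CMT) UQRPKM, and EGR1 had 406, 363 and 148. PER1, with a log2 ratio of -0.22 in CMT against IM and 0.26 in CMT against CM, did not pass in either. In CM against IM, where PER1 had -0.48, 8 of the 11 were lower, beside 56.8% of all mRNA genes tested. Their median log2 ratio was -0.20. JUN at -0.66 and ATF3 at -1.18 passed downward there and EGR3 at 0.60 upward, beside 10.4% and 8.38% of all genes.

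**Figure D4:**
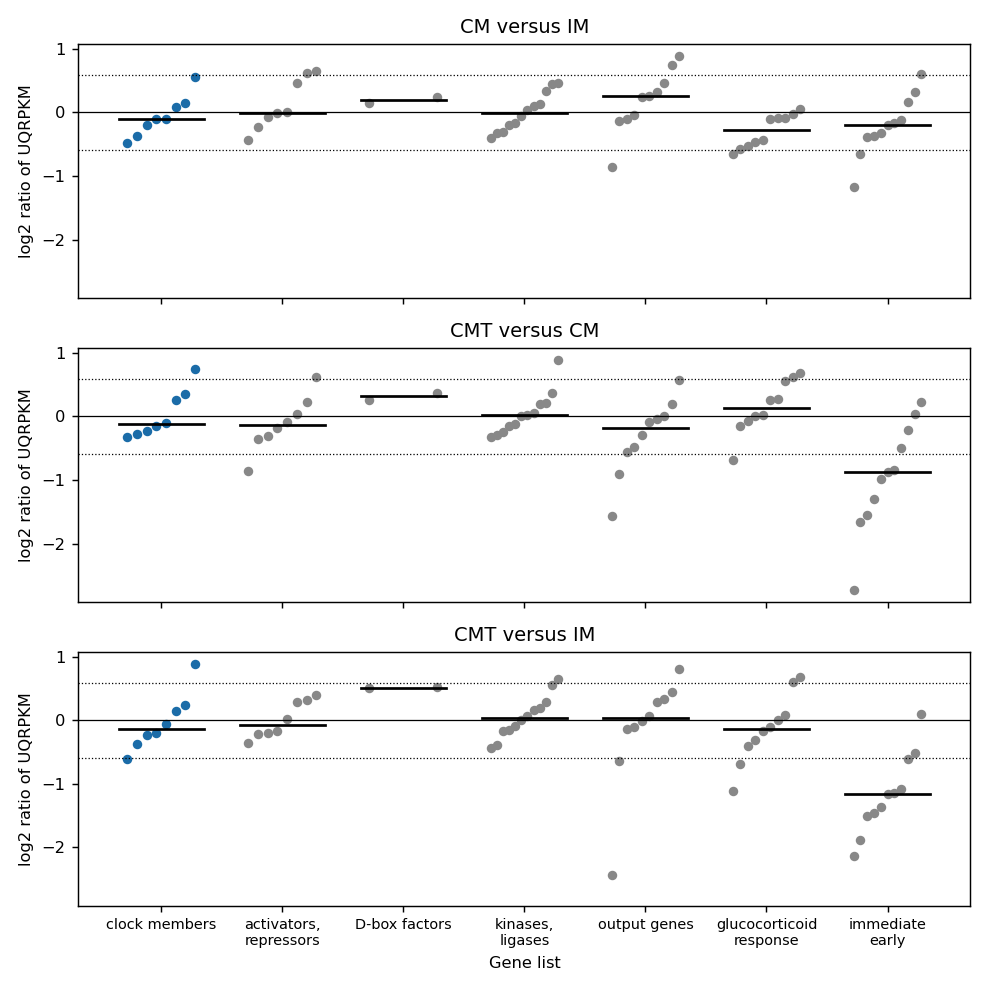
Log2 ratios of UQRPKM for single genes of the clock list (blue) and of related lists (grey) in CM against IM, CMT against CM and CMT against IM. Bars are list medians and dotted lines mark a 1.5-fold change. The clock medians lie between -0.13 and -0.10, and the median of the immediate early genes reaches -1.16 in CMT against IM.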

How the data were processed

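VAT RNA of 3 groups was sequenced from 1 pooled library each, as single-end reads, on Ion Proton. The authors removed adaptors and poor reads, mapped the rest to Sscrofa10.2 with MapSplice and deposited 1 RPKM value per gene, scaled by the upper quartile (UQRPKM). The counting tool, annotation, strand setting and treatment of reads on several genes are not given in the sources used here. Reads were recovered as the smallest whole numbers that fit the deposited RPKM values, with gene lengths up to 120000 bases, for 20838 of 20838 genes above 0. A gene whose reads share a factor is underestimated, and its interval is then too wide. Recovered reads served intervals, depth, read minimums (50 or 200) and the alternatives that use reads, and no main call.

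Calls used a fold change of 1.5 and 1 UQRPKM in both libraries, after the study's limits without its test. Differences of log2 ratios and of arms have approximate intervals from counting error. The genes named were the 10 members, those of the lists, and the 5 of most similar pattern to the member of widest range, and a few of these are not reported here. Members and lists were chosen with earlier results of these data known. Absent symbols were sought by NCBI gene identifier or synonym in the RefSeq gene table of Sscrofa11.1 and, for CIPC and NOCT, by older symbol. Coordinates and sequences are not given, since that table has another build and no sequence was at hand. Python 3.11.15, numpy 2.4.6, pandas 2.3.3 and scipy 1.17.1 were used, and the steps were tested on simulated data.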

Additional observations from a re-analysis of the deposited data

How the results depend on the processing

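Each comparison rests on 1 library a group, so no replicate could be left out. No paired analysis was possible because each group has 1 library and the results come from no test. With a fold of 2 in place of 1.5, 0 clock genes passed in CMT against CM and 0 in CMT against IM. With the median of ratios as the scaling, 1 gene (DBP) passed in CM against IM and 1 (CLOCK) in CMT against IM, and with total UQRPKM 1 (CLOCK) passed in CMT against IM. With the median of the adipocyte list set to 0, which raised all log2 ratios by 0.47 in CMT against CM and by 0.39 in CMT against IM, 3 genes passed in CMT against CM (CLOCK, PER1 and CRY1) and 2 in CMT against IM (CLOCK and DBP). The difference between the arms moved with wider arms to 0.12 in CM against IM, -0.063 in CMT against CM and 0.46 in CMT against IM. With CLOCK left out, chosen after the data were seen, it was -0.093 in CMT against CM and 0.060 in CMT against IM. The cause of these moves was not tested beyond the genes added or left out. Of 24 log2 ratios of single clock genes, 9 changed sign under some alternative, in all 9 under the adipocyte scaling. CLOCK passed in both comparisons with CMT under every alternative except the fold of 2. Among the clock genes, CLOCK and ARNTL had the fewest recovered reads and the widest counting intervals, though their true reads may be a multiple of these.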

Other observations

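The genes with the pattern most like that of CLOCK, the clock gene of widest range, included ARID5B, ITGA8, TSPAN6 and CHAD. Likeness was the distance in the log2 ratios CM to IM and CMT to IM over the 3 libraries, and it lay between 0.012 and 0.054 for these genes. ARID5B, a chromatin-binding factor, had 67.9 (IM), 75.5 (CM) and 124.7 (CMT) UQRPKM. ITGA8, an integrin subunit, had 7.45, 8.38 and 13.9. In all, 45 of 10014 genes with at least 200 reads lay within a distance of 0.2 of CLOCK. With 3 libraries such likeness is a description only.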
